A study of Mus musculus with 15 samples.

Results

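The genes described here are 45 Slit, netrin, semaphorin and plexin pathway genes of the mouse, 25 coding for ligands and 20 for receptors. They were chosen by family name and not by their measured values: 3 Slits, 3 Robos, 2 netrins, 6 netrin receptors (Dcc, Neo1 and 4 Unc5 genes), 20 semaphorins, 9 plexins and 2 neuropilins. The count table holds 21889 genes. All 45 members passed the low-count filter that left 15259 genes for testing, and the least counted member had 2485 reads over the 15 libraries.

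Poly(A) RNA of mouse cerebellum was sequenced in 5 groups of 3 libraries. Granule neuron precursors, the dividing cells that produce cerebellar granule neurons, were taken at the embryonic stage E15.5 from mice with the genotype label Math1-GFP, and at postnatal days 1, 7 and 14 (P1, P7, P14) from mice labelled WT. Math1 is another name of Atoh1, the transcription factor that marks these precursors. The other group is medulloblastoma (MB), a tumour of the cerebellum, from mice with the genotype label Ptch1 heterozygous. Ptch1 restrains Sonic hedgehog signalling, and granule neuron precursors divide in response to that signal. All 5 groups were purified on Percoll, a density medium, by the labels' protocol. The labels give no age for MB and do not say whether libraries came from separate animals, so the p-values measure only the spread between these libraries. The genotype label and the age change together between E15.5 and P1, and their parts in a difference cannot be told apart.

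Slits are secreted proteins that repel growing axons and migrating neurons through Robo receptors, and Robo3 is best known from commissural and precerebellar neurons. Netrin-1 attracts through Dcc and repels through Unc5 receptors, and mice without Unc5c have misplaced granule cells at the front of the cerebellum. Class 3 semaphorins are secreted and act through neuropilins paired with A plexins, except Sema3e, which binds plexin D1 directly. Classes 4 to 7 are held at the membrane. Sema6a and its receptor plexin A2 guide the inward migration of granule cells, and plexin B2 is needed for ordered proliferation and migration of their precursors.

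Libraries held 12597472 to 43443132 reads counted in genes. Levels are given as CPM, read counts scaled to a library total of 1000000 after TMM scaling, in the order of replicates 1 to 3. Markers of the granule lineage were abundant in every group, at a summed 3190 to 7823 CPM for 10 genes, although Gabra6, a gene of mature granule cells, was at 0 in the E15.5 libraries. Atoh1 itself was at 123.6 to 138.5 CPM at E15.5, 10.9 to 65.4 CPM in the postnatal libraries and 236 to 322 CPM in MB. At P14, Atoh1 was lowest, at 11.7, 10.9 and 13.1 CPM. Gabra6 was at 161, 202 and 164 CPM there, against 10.3, 9.49 and 2.54 CPM at P7. The P14 libraries are called precursors here after their label, and their share of mature granule cells was not tested. The library labelled P1 replicate 3 stood apart from the other P1 libraries, and Gabra6 was at 102 CPM in it against 1.12 and 12.5 CPM. The libraries also fall into a set of 6 and a set of 9 by the gene-table count of the gene Tsnax. Tsnax held at most 0.273% of its transcript-table count in E15.5 replicates 1 and 3, the P7 libraries and MB replicate 1. Elsewhere it held 92.4% or more. The sets are called counting sets here, and a difference in counting was inferred from Tsnax alone. None of the 41 members that could be compared between both tables differed between these sets in that way, but the smaller set holds every P7 library and no P1 or P14 library, so that age and set cannot be told apart for P7 against P1 or P14.

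Most of the members' change, like that of all genes tested, came between E15.5 and P1 and between P7 and MB. A gene was called when its false discovery rate (FDR), the Benjamini-Hochberg adjusted p of edgeR's quasi-likelihood test over all genes tested, was under 0.05. From E15.5 to P1, 25 of the 45 members were called, 11 higher and 14 lower at P1, against 46.3% of all genes tested (25.4% higher, 20.9% lower). In MB against P7, 23 members were called, 3 higher and 20 lower in MB, against 34.5% of all genes tested (13.7% higher, 20.7% lower). The median log2 fold change of the members in MB was -0.64, beside 0.02 over all genes tested. Among the 25 ligands, 14 fell in MB and 2 rose, and among the 20 receptors 6 fell and 1 rose. Of the 45 members, 13 lay lower in each MB library than in every one of the 12 precursor libraries (28.9% of members and 11.6% of all genes tested), and 2 lay higher in each (4.44% and 8.43%).

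Later ages differed less. From P1 to P14, 10 members were called, 4 higher and 6 lower at P14, against 8.94% of all genes tested (3.63% higher, 5.31% lower). P7 against P1 gave 6 members, 1 higher and 5 lower (3.15% of all genes, 1.4% higher and 1.74% lower), and P14 against P7 gave 7, 5 higher and 2 lower (10.3% of all genes, 5.81% higher and 4.51% lower). Those 3 counts rested on single libraries. The count for P14 against P1 was 3, 4 and 15 without P1 replicates 1, 2 and 3, and 5, 3 and 4 without P14 replicates 1 to 3. For P7 against P1 it was 5, 0 and 8 without P1 replicates 1 to 3 and 3, 1 and 4 without P7 replicates 1 to 3. For P14 against P7 it was 3, 0 and 3 without P7 replicates 1 to 3 and 1, 0 and 2 without P14 replicates 1 to 3. Where edgeR called no member, 8 had an unadjusted p under 0.05 for P7 against P1 without P1 replicate 2, and 11 and 12 for P14 against P7 without P7 or P14 replicate 2. A test for any difference among the 4 ages called 32 members, 71.1% of them, against 55.7% of all genes tested.

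**Figure D1:**
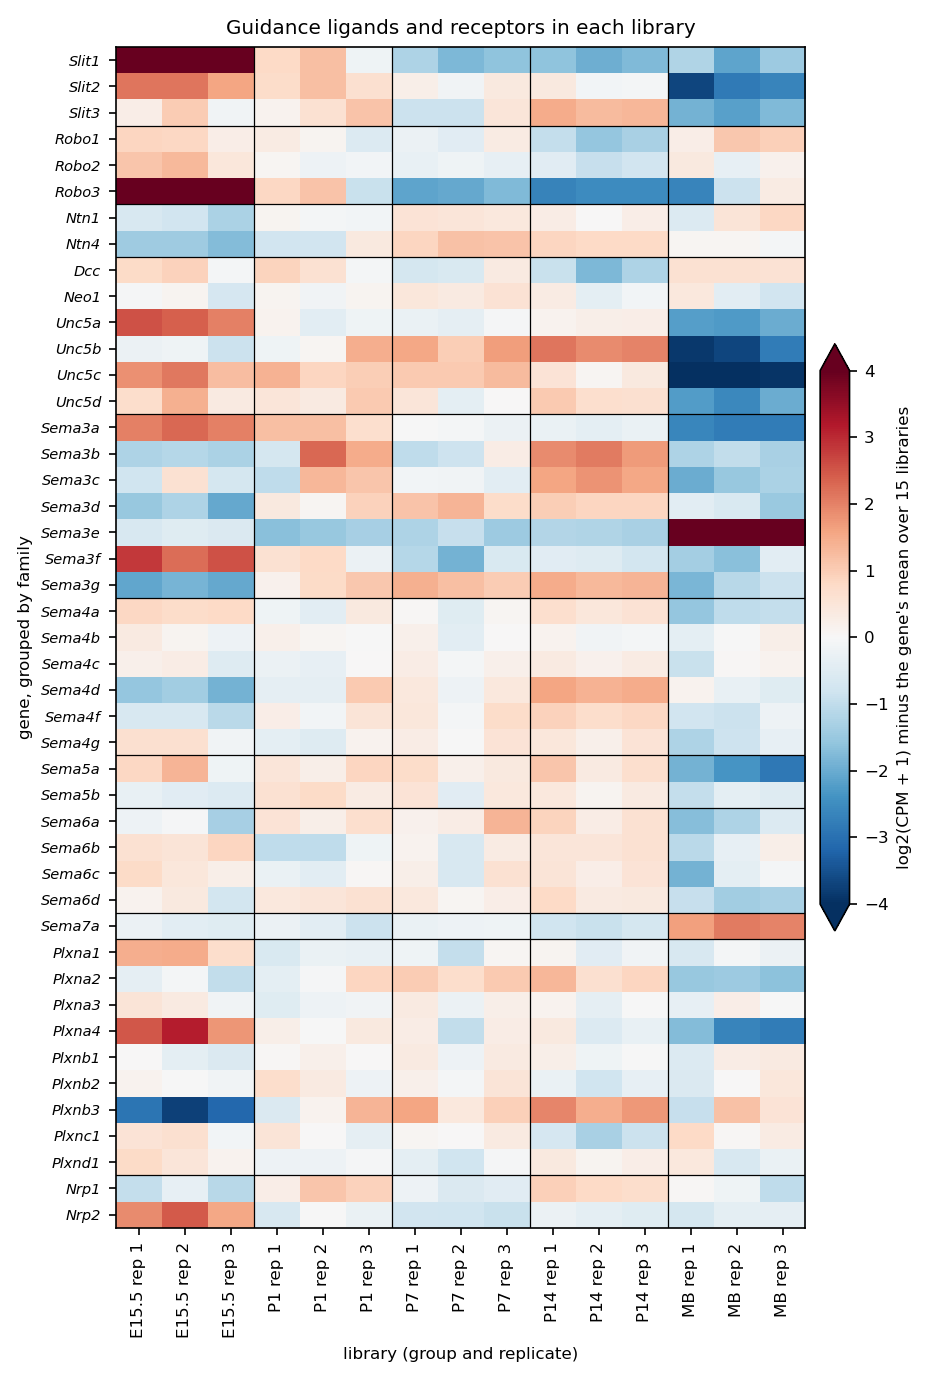
Levels of the 45 genes (rows, grouped by family) in the 15 libraries (columns), as log2(CPM + 1) minus the gene's mean over all libraries; red is above and blue below that mean, and values beyond 4 take the end colour. The E15.5 columns are red for Slit1 and Robo3, and the MB columns are red for Sema3e and Sema7a and blue for the 4 Unc5 genes.

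Per length, plexin B2 was the most abundant of the 45 members at each age, and Sema7a in MB. Divided by the length of the longest coding transcript, Plxnb2 was at 154, 193, 179.9 and 113 CPM per kb at E15.5, P1, P7 and P14. The GPI-anchored ligand Sema7a stood first in MB at 319 CPM per kb, with Plxnb2 next at 156. Unc5c went from rank 3 of 45 at E15.5 (65.7 CPM per kb) to rank 32 in MB (0.932), and Sema3e from rank 43 at P7 (0.45) to rank 6 in MB (30.3).

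Among the Slit ligands, Slit1 was an embryonic transcript. Slit1 (ENSMUSG00000025020, chromosome 19, 41674747 to 41817982 of mm9, the build named in the submitters' processing notes) was at 132, 129 and 103 CPM at E15.5, 9.74, 13.3 and 4.56 at P1, 1.64, 0.8 and 1.04 at P7, 1.05, 0.603 and 0.836 at P14 and 1.71, 0.44 and 1.28 in MB. The E15.5 libraries lay above all others and the P1 libraries above the later ages, while MB overlapped P7 and P14. Slit1 fell by 13.2-fold from E15.5 to P1 (log2 fold change -3.72 ± 0.44 SE, FDR 1.17e-05) and again from P1 to P14 (log2 fold change -3.47 ± 0.47 SE, FDR 0.000948). Per length it made up 70.4% of the Slit level at E15.5 and 6.76% at P7.

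Slit2 remained present after birth and was low in the tumour. Its level was 86.6, 86.9 and 58.3 CPM at E15.5, 32.4, 45.3 and 30.03 at P1, 22.4, 17 and 25.1 at P7, 25.4, 17.5 and 18.1 at P14 and 0.555, 1.78 and 2.2 in MB. Every MB library lay below every precursor library and the fitted fall from P7 was 14.1-fold (log2 fold change -3.81 ± 0.38 SE, FDR 2.39e-06). From E15.5 to P1 Slit2 fell as well (log2 fold change -1.10 ± 0.33 SE, FDR 0.0134), a call that was lost without P1 replicate 3 (FDR 0.0518).

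Slit3 was the least abundant Slit per length at E15.5, at 5.41, 9.69 and 3.81 CPM, and stood at 4.85, 7.17 and 10.9 at P1, 1.93, 1.93 and 6.51 at P7, 13.9, 11.8 and 12.4 at P14 and 0.436, 0.195 and 0.56 in MB. The P14 libraries were the highest and the MB libraries the lowest, each without overlap with any other group. The fall in MB against P7 was called (log2 fold change -3.15 ± 0.58 SE, FDR 0.000558). The summed Slit level per length was 24.8 to 33.3 CPM per kb at E15.5 and 0.294 to 0.554 in MB.

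Of the Robo receptors, Robo3 had the widest range. Robo3 (ENSMUSG00000032128, chromosome 9, 37223630 to 37240748) was at 338, 189 and 295 CPM at E15.5, 11.6, 14.5 and 2.79 at P1, 0.614, 0.69 and 1.08 at P7, 0.101, 0.241 and 0.234 at P14 and 0.119, 2.86 and 7.77 in MB. No library of an age overlapped with the next age, and the order was downward throughout. Robo3 fell 28.5-fold by P1 (log2 fold change -4.83 ± 0.81 SE, FDR 0.000233) and further by P14 (log2 fold change -5.60 ± 1.00 SE, FDR 0.00566), where it rested on 3, 8 and 7 reads. Per length, Robo3 was 42.2% of the Robo level at E15.5 and 0.447% at P7. In MB the libraries disagreed: replicate 1 lay below the P7 libraries and replicates 2 and 3 above them. MB against P7 was not called (FDR 0.0539) and was called higher without MB replicate 1 (FDR 0.00235). With only the set of 6 libraries, where MB is replicate 1 alone, it was called lower (FDR 0.0178).

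Robo1 and Robo2, the main Robos after birth, moved less. Robo2 was at 497, 568 and 314 CPM at E15.5, 242, 200.5 and 213 at P1, 184, 204 and 184 at P7, 168, 120.3 and 135 at P14 and 299, 183 and 257 in MB, and fell from E15.5 to P1 (log2 fold change -1.07 ± 0.23 SE, FDR 0.00147). Robo1 was at 214, 207 and 141 CPM at E15.5, 147, 127 and 80.7 at P1, 99.6, 85.2 and 149 at P7, 59.7, 39.8 and 47 at P14 and 140.5, 250.1 and 227 in MB. P14 held the lowest Robo1 values without overlap with any group. Robo1 fell from P1 to P14 (log2 fold change -1.27 ± 0.29 SE, FDR 0.0173), and the call was lost without P1 replicate 1 or 2 (FDR 0.108 and 0.0836) or P14 replicate 2 or 3 (FDR 0.0938 and 0.0803). Robo1 was 1 of the 3 members called higher in MB against P7 (log2 fold change 0.89 ± 0.28 SE, FDR 0.0242). MB and P7 overlapped, and that call was lost without P7 replicate 1 or 2 (FDR 0.072 and 0.0977), without MB replicate 2 or 3 (FDR 0.0952 and 0.067), and within the set of 6 libraries (FDR 0.484).

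**Figure D2:**
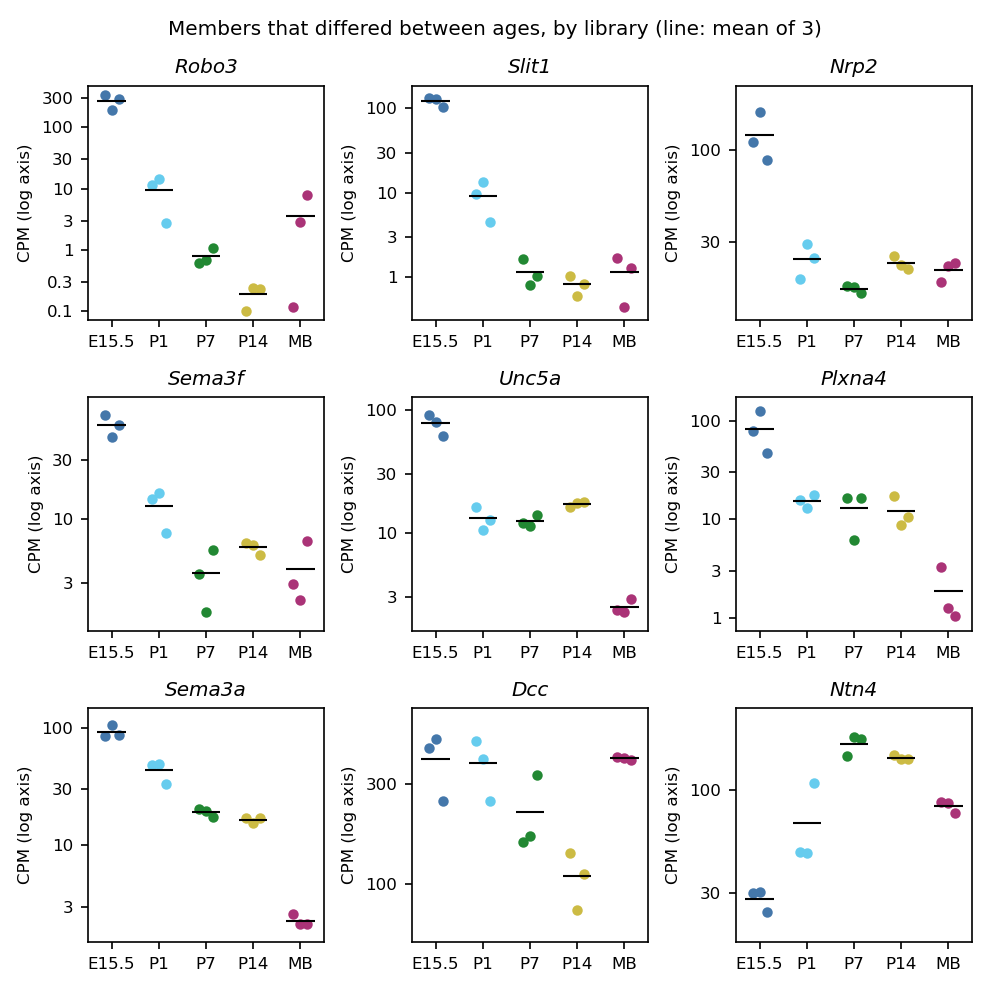
CPM on log axes for 9 members called among the 4 ages, 1 point per library and a line at the mean of 3, by group. Robo3, Slit1, Nrp2, Sema3f, Unc5a and Plxna4 are highest at E15.5 with no overlap, and Ntn4 is lowest there.

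The netrin ligands went the other way across birth. Ntn4, a netrin related to laminins, was at 29.8, 30.2 and 24 CPM at E15.5, 48.1, 47.8 and 108 at P1, 148, 185 and 179.9 at P7, 149.8, 142 and 143 at P14 and 86.5, 85.6 and 76.6 in MB. The E15.5 libraries were below all others, and P1 replicate 3 was above the other P1 libraries. Ntn4 rose from E15.5 to P1 (log2 fold change 1.29 ± 0.26 SE, FDR 0.000987), was lower in MB than at P7 (log2 fold change -1.04 ± 0.25 SE, FDR 0.00476), and both calls were lost when only libraries of 1 counting set were used (FDR 0.0683 and 0.0578). Ntn1, the chief ligand of Dcc, averaged 62.8 ± 13.9 CPM (SD, n = 3) in the E15.5 libraries, 114 ± 9.66 in P1, 161 ± 6.85 in P7, 132 ± 14.2 in P14 and 152 ± 66.3 in MB libraries. Its rise to P1 (log2 fold change 0.86 ± 0.27 SE, FDR 0.0166) was lost without E15.5 replicate 3 (FDR 0.101) or P1 replicate 1 (FDR 0.0509). The summed netrin level per length was 14.6 to 20.7 CPM per kb at E15.5 and 69.2 to 78.3 at P7.

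The repulsive netrin receptors of the Unc5 family were all low in MB, while the other netrin receptors Dcc and Neo1 were not called there. The 4 Unc5 genes fell in MB against P7 with a median log2 fold change of -4.02. Their summed level per length was 60.5 to 78.3 CPM per kb in the P7 libraries and 1.88 to 3.23 in the MB libraries, while Dcc and Neo1 together were at 116 to 149 and 83.3 to 144. The promoters of the most abundant Unc5 genes of P7 are shown because both genes fell together. They are the 250 bases before the RefSeq start on GRCm38.p6, 5′ to 3′ on the gene's strand, with CpG dinucleotides in capitals. The Unc5c stretch is chr3:141465314-141465563 (plus strand, 23 CpG) and the Unc5b stretch chr10:60831582-60831831 (minus strand, 27 CpG).
Unc5c: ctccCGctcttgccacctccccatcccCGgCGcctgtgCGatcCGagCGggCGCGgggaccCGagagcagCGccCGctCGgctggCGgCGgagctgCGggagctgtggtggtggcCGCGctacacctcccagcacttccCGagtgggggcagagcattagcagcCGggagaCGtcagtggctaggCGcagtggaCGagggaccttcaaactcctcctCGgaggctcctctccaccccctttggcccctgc
Unc5b: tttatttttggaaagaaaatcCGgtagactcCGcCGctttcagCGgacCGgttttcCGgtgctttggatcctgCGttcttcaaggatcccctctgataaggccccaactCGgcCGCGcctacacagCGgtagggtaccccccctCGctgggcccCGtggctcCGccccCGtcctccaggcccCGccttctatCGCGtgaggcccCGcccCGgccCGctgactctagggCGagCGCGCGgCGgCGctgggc

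Unc5c (ENSMUSG00000059921, chromosome 3, 141128528 to 141497888) was the most abundant Unc5 gene per length in the E15.5, P7 and MB libraries. It was at 660.2, 804 and 438 CPM at E15.5, 490.0, 338 and 365 at P1, 384, 383 and 445 at P7, 269.7, 198 and 246 at P14 and 9, 6.57 and 11.4 in MB. Every MB library was far below every precursor library. From P7 to MB Unc5c fell 45.1-fold (log2 fold change -5.49 ± 0.30 SE, FDR 8.05e-09). From E15.5 to P1 the fall was small (log2 fold change -0.67 ± 0.24 SE, FDR 0.0345), the groups overlapped, and leaving out E15.5 replicate 1 or 2 or P1 replicate 2 or 3 ended the call (FDR 0.0792, 0.149, 0.126 and 0.0978).

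Unc5b (ENSMUSG00000020099, chromosome 10, 60225358 to 60294329) was at 41.6, 43.9 and 27 CPM at E15.5, 43.4, 52.6 and 137 at P1, 148, 99.7 and 160.4 at P7, 221, 186 and 199 at P14 and 2.5, 2.96 and 6.32 in MB. The P14 libraries were the highest group and MB the lowest, and P1 replicate 3 lay within the P7 range, apart from the other P1 libraries. In MB Unc5b fell 34.8-fold against P7 (log2 fold change -5.12 ± 0.47 SE, FDR 1.12e-06). The rise from E15.5 to P1 (log2 fold change 1.05 ± 0.40 SE, FDR 0.0408) was lost without any E15.5 library (FDR 0.0691, 0.0536 and 0.168) and without P1 replicate 3 (FDR 0.407). The rise from P1 to P14 (log2 fold change 1.38 ± 0.40 SE, FDR 0.0443) was lost without P1 replicate 1 or 2 (FDR 0.215 and 0.205) or any P14 library (FDR 0.117, 0.111 and 0.114).

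Unc5a followed the embryonic pattern of Slit1 and Robo3. It was at 90.9, 80.2 and 61.8 CPM at E15.5, 16.1, 10.5 and 12.8 at P1, 12, 11.3 and 14.1 at P7, 16.4, 17.4 and 17.8 at P14 and 2.38, 2.27 and 2.92 in MB. E15.5 was the highest group and MB the lowest, both without overlap. Unc5a fell from E15.5 to P1 (log2 fold change -2.56 ± 0.21 SE, FDR 6.12e-07) and was lower in MB than at P7 (log2 fold change -2.31 ± 0.22 SE, FDR 1.40e-06). Unc5d was at 19.6, 32.9 and 15.3 CPM at E15.5, 16.7, 15.4 and 25.5 at P1, 17, 8.75 and 11.9 at P7, 25.4, 19.2 and 18.7 at P14 and 1.71, 1.12 and 2.2 in MB. Its precursor groups overlapped except that P14 lay above P7, a difference that was not called (FDR 0.155). All precursor groups lay above MB, and MB against P7 was called (log2 fold change -2.92 ± 0.37 SE, FDR 2.19e-05).

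Dcc, the attractive netrin receptor, declined after birth and stayed at a precursor level in MB. It was at 444, 493 and 247 CPM at E15.5, 483, 395 and 249 at P1, 159, 169 and 330.4 at P7, 139.8, 74.9 and 111 at P14 and 401, 397 and 391 in MB. The P14 libraries were the lowest, and the MB libraries lay within the E15.5 range and above every P7 library. From P1 to P14 Dcc fell (log2 fold change -1.79 ± 0.34 SE, FDR 0.00845), which was lost without P1 replicate 1 (FDR 0.0531) or P14 replicate 2 (FDR 0.0653). MB against P7 was not called (log2 fold change 0.85 ± 0.33 SE, FDR 0.0598), but was called higher by DESeq2 (FDR 0.0332) and without P7 replicate 3 (FDR 0.0104). Neo1 codes for neogenin, a relative of Dcc that also binds repulsive guidance molecules. It was at 557, 617 and 361 CPM at E15.5, 621, 514 and 623 at P1, 787, 738 and 863 at P7, 718, 436 and 534 at P14 and 773, 429 and 335 in MB, and was called in none of the 5 comparisons. Without MB replicate 1, Neo1 was called lower in MB than at P7 (FDR 0.00504).

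**Figure D3:**
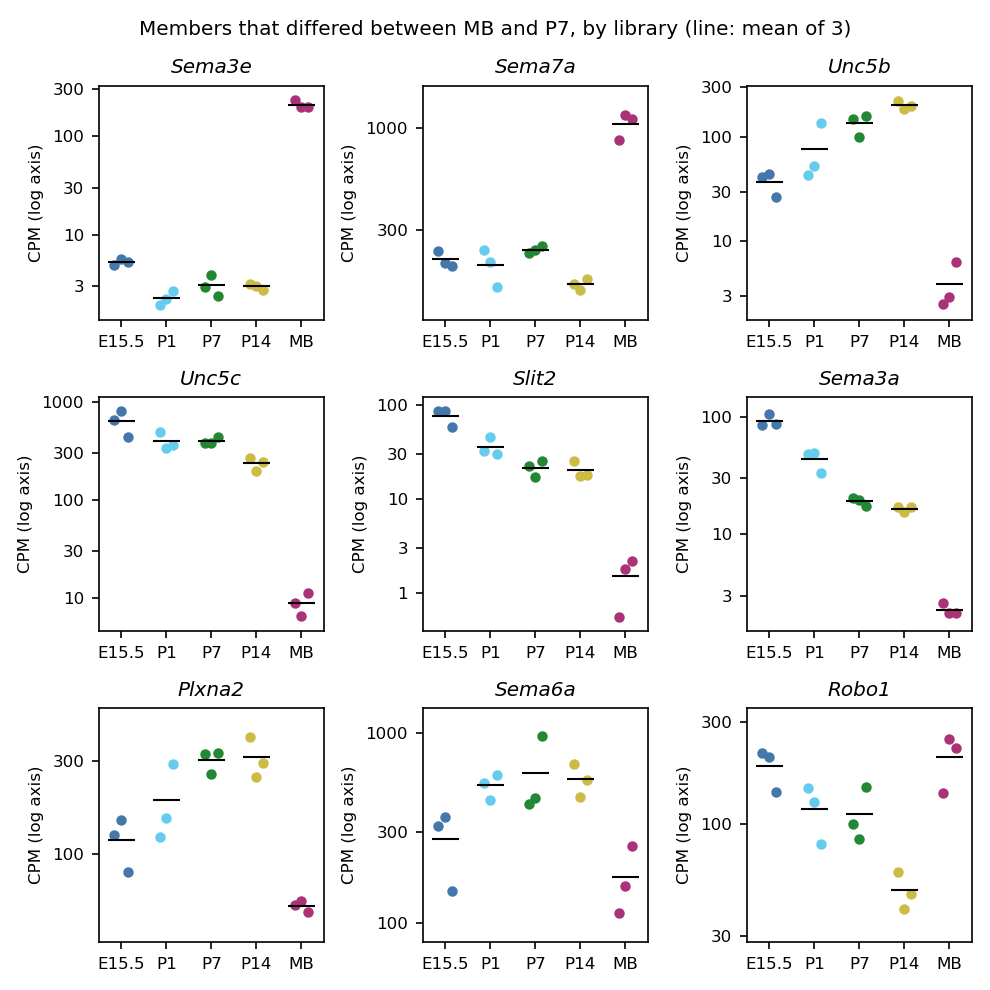
CPM on log axes for 9 members called between MB and P7, 1 point per library and a line at the mean of 3, by group. Sema3e and Sema7a lie above all precursor libraries in MB, Unc5b, Unc5c, Slit2, Sema3a and Plxna2 lie below all of them, and Robo1 overlaps P7.

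Of the 20 semaphorin genes, 11 fell and 2 rose in MB against P7, beside 20.7% lower and 13.7% higher among all genes tested. The share that rose was not above that of all genes. Sema3e and Sema7a were the 2 that rose, and their promoters are shown as above. Sema3e is at chr5:14025026-14025275 (plus strand, 7 CpG) and Sema7a at chr9:57939862-57940111 (plus strand, 17 CpG).
Sema3e: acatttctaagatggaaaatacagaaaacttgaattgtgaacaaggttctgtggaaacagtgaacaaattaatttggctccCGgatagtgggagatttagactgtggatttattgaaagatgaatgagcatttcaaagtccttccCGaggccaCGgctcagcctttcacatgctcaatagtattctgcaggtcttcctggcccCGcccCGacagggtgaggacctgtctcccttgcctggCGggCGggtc
Sema7a: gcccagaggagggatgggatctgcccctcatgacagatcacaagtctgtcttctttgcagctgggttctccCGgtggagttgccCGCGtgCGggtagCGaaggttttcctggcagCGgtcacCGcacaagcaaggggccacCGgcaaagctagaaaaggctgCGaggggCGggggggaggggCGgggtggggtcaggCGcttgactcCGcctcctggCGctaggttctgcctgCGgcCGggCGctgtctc
RefSeq windows from 250 bases before to 50 after the start were matched for 36 of the 45 members, 49 windows in all. The ratio of CpG found to CpG expected from base content was 0.6 or more in 55.1% of the members' windows and in 62.6% of the windows of genes tested. It was 0.579 for Sema3e, 0.69 for Sema7a, 0.99 for Unc5b and 0.685 for Unc5c.

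Sema3e (ENSMUSG00000063531, chromosome 5, 14025317 to 14256689), the secreted ligand of plexin D1, was low in the precursors. It was at 4.97, 5.68 and 5.25 CPM at E15.5, 1.93, 2.25 and 2.68 at P1, 2.98, 3.89 and 2.39 at P7, 3.14, 3.04 and 2.77 at P14 and 229, 196 and 198 in MB. Every MB library was above every precursor library, and the fitted rise from P7 was 66.9-fold (log2 fold change 6.06 ± 0.22 SE, FDR 4.90e-10). Its small fall from E15.5 to P1 was also called (log2 fold change -1.21 ± 0.20 SE, FDR 0.000194). Its receptor gene Plxnd1 averaged 67.5 ± 17.5 CPM at P7 and 81.6 ± 31.3 in MB (SD, n = 3) and was not called (FDR 0.442).

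Sema7a (ENSMUSG00000038264, chromosome 9, 57787920 to 57810671), whose product binds plexin C1 and integrins, was at 236, 205 and 198 CPM at E15.5, 238, 206 and 153 at P1, 228, 238 and 248 at P7, 159.8, 148 and 169 at P14 and 869, 1178 and 1112 in MB. The 12 precursor libraries spanned 148 to 248 CPM, below all MB libraries. Sema7a rose 4.42-fold in MB against P7 (log2 fold change 2.14 ± 0.19 SE, FDR 6.97e-07). Its receptor gene Plxnc1 averaged 184 ± 24 CPM at P7 and 223 ± 61 in MB, with MB against P7 not called (FDR 0.462).

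The other class 3 semaphorins were lower in the tumour than at P7 or not called there. Sema3a, the classic collapsing factor that acts through neuropilin-1, was at 86.2, 106 and 86.6 CPM at E15.5, 48.8, 49.1 and 33.7 at P1, 20.4, 19.6 and 17.3 at P7, 17, 15.6 and 17.1 at P14 and 2.58, 2.15 and 2.12 in MB. Each group lay below the one before it without overlap. Sema3a fell from E15.5 to P1 (log2 fold change -1.08 ± 0.18 SE, FDR 0.000213), from P1 to P14 (log2 fold change -1.41 ± 0.18 SE, FDR 0.000813) and in MB against P7 (log2 fold change -3.07 ± 0.20 SE, FDR 4.30e-08). Sema3f, a ligand of neuropilin-2, was called lower at P1 than at E15.5 with means of 58.2 ± 12.1 and 12.8 ± 4.59 CPM (log2 fold change -2.19 ± 0.44 SE, FDR 0.000924) and was not called in MB. Sema3d rose from 6.72 ± 2.11 CPM at E15.5 to 31.6 ± 10.1 at P1 (log2 fold change 2.25 ± 0.33 SE, FDR 7.87e-05) and was at 47.9 ± 10.3 at P7 and 12.4 ± 4.7 in MB (log2 fold change -1.95 ± 0.32 SE, FDR 0.000235). Sema3c was lower in MB, at 1.05 ± 0.506 against 4.2 ± 0.569 CPM (log2 fold change -1.99 ± 0.61 SE, FDR 0.0201), a call lost without P7 replicate 1 (FDR 0.0528), MB replicate 1 (FDR 0.064) or MB replicate 2 (FDR 0.0514).

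Sema3g and Sema3b were low at E15.5. Sema3g was at 0.654, 0.919 and 0.709 CPM at E15.5, 6.95, 10.9 and 13.7 at P1, 17.6, 14.9 and 13.2 at P7, 18.4, 16.1 and 16.9 at P14 and 0.952, 2.25 and 2.84 in MB. E15.5 was lowest and MB next lowest, without overlap with the postnatal precursors. Sema3g rose from E15.5 to P1 (log2 fold change 3.82 ± 0.38 SE, FDR 2.93e-06) and was lower in MB than at P7 (log2 fold change -2.92 ± 0.35 SE, FDR 1.33e-05). Sema3b was at 1.13, 1.25 and 1.1 CPM at E15.5, 2.06, 23.8 and 12.9 at P1, 1.46, 1.85 and 5.12 at P7, 17.6, 20.04 and 15.3 at P14 and 1.15, 1.51 and 1.04 in MB. Its P1 libraries were widely spread, from near the E15.5 level to above the P14 level. The rise from E15.5 to P1 (log2 fold change 3.48 ± 0.67 SE, FDR 0.000739) was lost when only libraries of 1 counting set were used (FDR 0.0608).

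Among the class 4 semaphorins, most of them ligands of B plexins, Sema4d rose with age. Sema4d, which binds plexin B1 and is known from oligodendrocytes and lymphocytes, was at 14, 15.9 and 10.8 CPM at E15.5, 33.6, 32.8 and 90.1 at P1, 58.1, 37 and 57.9 at P7, 131, 115 and 122 at P14 and 47.7, 34.4 and 30.6 in MB. The E15.5 libraries were the lowest and the P14 libraries the highest, and P1 replicate 3 lay apart from the other P1 libraries. Sema4d rose from E15.5 to P1 (log2 fold change 1.95 ± 0.35 SE, FDR 0.000384). Its rise from P1 to P14 (log2 fold change 1.23 ± 0.34 SE, FDR 0.0362) was lost without P1 replicate 1 or 2 (FDR 0.192 and 0.182) or any P14 library (FDR 0.101, 0.0998 and 0.102). Sema4c, which led the class per length at P1 and in MB and was second to Sema4g at the other ages, was at 111, 119 and 66.5 CPM at E15.5, 81.2, 76.3 and 96.4 at P1, 118, 89.7 and 109.9 at P7, 122, 107 and 120.0 at P14 and 51.4, 98.8 and 106 in MB, and was called in no comparison. Sema4b was not called either, with group means of 39.1 to 43.4 CPM. Sema4f rose from E15.5 to P1 (log2 fold change 1.04 ± 0.24 SE, FDR 0.00274) and Sema4a fell (log2 fold change -0.86 ± 0.26 SE, FDR 0.0146), the latter lost without P1 replicate 1 or 2 (FDR 0.0516 and 0.0748). In MB against P7, Sema4a, Sema4f and Sema4g fell, with log2 fold changes of -1.20, -1.01 and -1.05 (FDR 0.00247, 0.00408 and 0.0067).

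The transmembrane semaphorins of classes 5 and 6 were low in MB in 4 of 6 cases. Sema5a, a ligand of plexin B3, was at 57.7, 84.4 and 28.1 CPM at E15.5, 45.8, 38 and 59.3 at P1, 53.7, 36.9 and 42.2 at P7, 71.1, 41.8 and 52.2 at P14 and 7.89, 5.5 and 3.6 in MB. The 4 ages overlapped, and all of them lay above MB (log2 fold change -2.96 ± 0.38 SE, FDR 2.72e-05). Sema5b was at 19.5, 17.4 and 16.2 CPM at E15.5, 37.5, 41.2 and 30.2 at P1, 35.7, 17.1 and 32.7 at P7, 32.8, 26.2 and 31.4 at P14 and 12, 17.9 and 16.6 in MB. It rose from E15.5 to P1 (log2 fold change 1.04 ± 0.26 SE, FDR 0.00408) and was lower in MB (log2 fold change -0.88 ± 0.25 SE, FDR 0.0142), where the groups overlapped and leaving out P7 replicate 1 or 3 ended the call (FDR 0.102 and 0.0539).

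Sema6a, the ligand of plexins A2 and A4, was at 326, 361 and 148 CPM at E15.5, 543, 442 and 601 at P1, 421, 453 and 964 at P7, 687, 458 and 567 at P14 and 113, 157 and 254 in MB. P7 replicate 3 stood above the other P7 libraries, and all MB libraries lay below all postnatal precursors (log2 fold change -1.81 ± 0.39 SE, FDR 0.00183). The difference between E15.5 and P1 missed the threshold (log2 fold change 0.93 ± 0.38 SE, FDR 0.0559) and passed it without E15.5 replicate 2 (FDR 0.0422). Sema6b was at 48, 45.7 and 58 CPM at E15.5, 14.9, 14.8 and 27.7 at P1, 35, 19.9 and 39.4 at P7, 44, 44 and 48.3 at P14 and 14.4, 24.8 and 37.4 in MB. The P1 libraries lay below E15.5 and P14, a dip called against E15.5 (log2 fold change -1.40 ± 0.34 SE, FDR 0.00342). Its rise to P14 (log2 fold change 1.25 ± 0.34 SE, FDR 0.0345) was lost without P1 replicate 1 or 2 (FDR 0.183 and 0.176) or any P14 library (FDR 0.0845, 0.1 and 0.109). Sema6d, a ligand of plexin A1, averaged 259 ± 30.3 CPM at P7 and 94 ± 17.3 in MB (log2 fold change -1.46 ± 0.24 SE, FDR 0.000266), which was lost within the set of 6 libraries (FDR 0.062). Sema6c was called in no comparison, with group means of 73.7 CPM in MB to 159 at E15.5, but was called lower in MB than at P7 without P7 replicate 2 (FDR 0.0455) or MB replicate 3 (FDR 0.0443) and within the set of 6 libraries (FDR 0.0151).

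Among the plexins, the semaphorin receptors, Plxnb2 had its lowest group mean at P14. It was at 1107, 980.3 and 909 CPM at E15.5, 1624, 1273 and 856 at P1, 1147, 938 and 1421 at P7, 830.1, 574 and 793 at P14 and 669, 1002 and 1373 in MB. The groups overlapped except that P14 lay below the other ages, and no comparison was called. In alternatives, P14 was called lower than P1 with DESeq2 (FDR 0.0473) and without P1 replicate 3 (FDR 0.0289). It was called lower than P7 with only the groups compared (FDR 0.0498). Plxna3, a partner of neuropilins, and Plxnb1, the receptor of Sema4d, were not called in any comparison either. Their group means ran from 157 to 229 and from 155 to 218 CPM. Plxnd1, the receptor of Sema3e, was called by the test for any difference among the 4 ages (FDR 0.0321), with group means from 67.5 to 123 CPM. It was called in none of the 5 comparisons of pairs of groups, but all P1 libraries lay below all E15.5 libraries and the difference was near the threshold (log2 fold change -0.64 ± 0.25 SE, FDR 0.0502), passing it in 6 alternatives such as DESeq2 (FDR 0.0443). Plxna2, the Sema6a receptor of granule cells, averaged 118 ± 34.6 CPM in the E15.5 libraries, 188 ± 89.5 in P1, 304 ± 40.1 in P7, 313 ± 76.9 in P14 and 54.5 ± 3.47 in MB libraries (SD, n = 3). The MB libraries lay below all 12 precursor libraries, and the fall from P7 was called (log2 fold change -2.48 ± 0.31 SE, FDR 1.91e-05).

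Plxna4 and Plxna1 shared the embryonic peak. Plxna4 was at 78, 124 and 47.3 CPM at E15.5, 15.6, 13.1 and 17.6 at P1, 16.5, 6.1 and 16.4 at P7, 17.4, 8.68 and 10.4 at P14 and 3.29, 1.25 and 1.04 in MB. E15.5 was highest and MB lowest, both without overlap. Plxna4 fell from E15.5 to P1 (log2 fold change -2.42 ± 0.47 SE, FDR 0.000788) and in MB against P7 (log2 fold change -2.82 ± 0.50 SE, FDR 0.000445). Plxna1 fell from 221 ± 61.9 to 70.5 ± 8.64 CPM across birth (log2 fold change -1.65 ± 0.28 SE, FDR 0.000244) and averaged 75.2 ± 25.8 at P7 and 74.9 ± 14.5 in MB.

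Plxnb3, a plexin known from oligodendrocytes, was the member that rose most from E15.5 to P1. It was at 1.35, 0.334 and 1.02 CPM at E15.5, 10.9, 18.5 and 44 at P1, 51.7, 22.6 and 33 at P7, 68.3, 47.7 and 58.1 at P14 and 8.33, 38.8 and 24.8 in MB. All E15.5 libraries lay below all others (log2 fold change 4.66 ± 0.66 SE, FDR 5.63e-05). Within MB, replicate 1 lay below P7 and replicates 2 and 3 within its range. Plxnc1 fell from P1 to P14 (log2 fold change -1.01 ± 0.27 SE, FDR 0.0337), which was lost without P1 replicate 1 or 2 (FDR 0.203 and 0.114) or any P14 library (FDR 0.0668, 0.145 and 0.102).

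The neuropilins, co-receptors of class 3 semaphorins, changed in opposite directions across birth. Nrp2 was at 112, 166 and 87.9 CPM at E15.5, 18.4, 29.2 and 24.3 at P1, 16.7, 16.6 and 15.2 at P7, 24.8, 22 and 20.9 at P14 and 17.7, 21.9 and 22.7 in MB, and fell from E15.5 to P1 (log2 fold change -2.35 ± 0.24 SE, FDR 2.82e-06). Nrp1 was at 16.8, 26.1 and 15 CPM at E15.5, 40.4, 72.3 and 63.8 at P1, 28.7, 22.2 and 23.8 at P7, 65.7, 58.6 and 54.5 at P14 and 34.4, 29.1 and 16.1 in MB, and rose (log2 fold change 1.61 ± 0.29 SE, FDR 0.000456). The E15.5 libraries lay apart from P1 for both genes. Per length Nrp2 was 77.2% of the neuropilin level at E15.5, and Nrp1 was 74.2% at P7. Neither was called in MB.

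**Figure D4:**
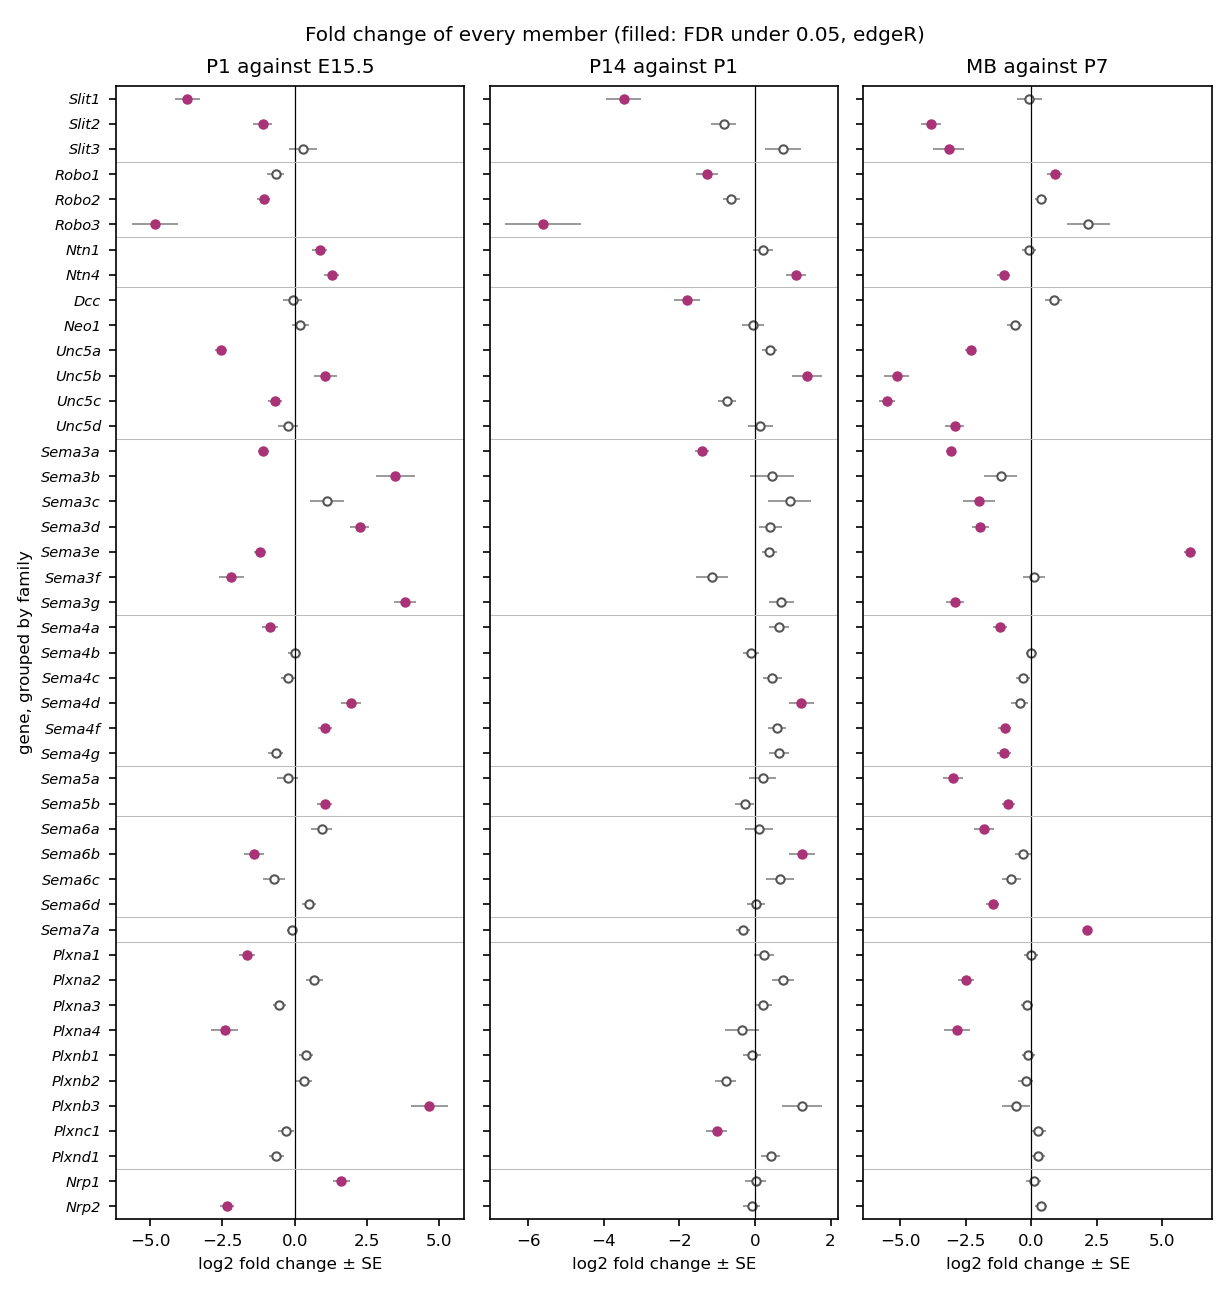
Log2 fold change ± SE of each of the 45 genes in P1 against E15.5, P14 against P1 and MB against P7, with filled points for FDR under 0.05. The 4 Unc5 genes lie left of 0 in MB, and Sema3e stands far to the right at 6.06.

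Calls that held in every alternative analysis numbered 18 of 25 for P1 against E15.5, 3 of 10 for P14 against P1 (Slit1, Sema3a and Robo3) and 17 of 23 for MB against P7. None of the 6 calls of P7 against P1 or of the 7 of P14 against P7 did so. The 6 were Slit1, Robo3, Sema3f, Nrp1 and Sema3a, lower at P7, and Ntn4, higher at P7, with log2 fold changes of -2.98, -3.61, -1.84, -1.24, -1.20 and 1.33. The 7 were Sema3b, Sema3c, Slit3, Sema4d and Nrp1, higher at P14, and Robo1 and Plxnc1, lower, with log2 fold changes of 2.66, 2.08, 1.89, 1.26, 1.26, -1.19 and -1.07. Leaving out P1 replicate 2 for the 6, or P7 replicate 2 or P14 replicate 2 for the 7, left 0 calls.

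Partners and mediators of the receptors were followed in 3 lists. Of 19 Slit and Robo partners tested, 1 rose and 3 fell from E15.5 to P1, and 1 was higher and 6 lower in MB than at P7. Of 21 netrin partners, 5 rose and 6 fell from E15.5 to P1, and 5 were higher and 4 lower in MB. Of 30 semaphorin and plexin partners, 3 rose and 11 fell from E15.5 to P1, and 6 were higher and 10 lower in MB. The called shares of the 3 lists were 21.1%, 52.4% and 46.7% for P1 against E15.5, beside 46.3% of all genes tested, and 36.8%, 42.9% and 53.3% for MB against P7, beside 34.5%. The largest changes across birth were those of Cap2, an actin regulator (log2 fold change 1.94 ± 0.26 SE, FDR 3.49e-05), Dscam, a netrin co-receptor (log2 fold change -1.79 ± 0.35 SE, FDR 0.000756), Mical2, an actin-oxidising enzyme (log2 fold change 1.79 ± 0.33 SE, FDR 0.000573), and Dpysl5, a collapsin response mediator (log2 fold change -1.62 ± 0.23 SE, FDR 6.83e-05). In MB against P7 they were those of L1cam, an adhesion molecule in the Sema3a receptor complex (log2 fold change -3.75 ± 0.43 SE, FDR 9.75e-06), Ablim1, an actin-binding protein of netrin signalling (log2 fold change -2.64 ± 0.33 SE, FDR 2.19e-05), Mical1, an effector of A plexins (log2 fold change 2.22 ± 0.23 SE, FDR 3.49e-06), and Erbb2, a kinase that associates with B plexins (log2 fold change -2.22 ± 0.37 SE, FDR 0.000257).

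Markers of other cell types moved with several members, and in bulk RNA fewer cells of a type and less RNA per cell cannot be told apart. All 7 endothelial markers were tested, and their sum was 11.9 to 31.9 CPM in the E15.5 libraries, 386 to 580.0 in P1, 292 to 362 in P7, 708 to 738 in P14 and 18.6 to 32.1 in MB libraries. All 8 pericyte, fibroblast and meningeal markers summed to 23.2 to 40.9, 701 to 1024, 387 to 644, 896 to 1061 and 25.9 to 35.6 CPM in the same order. Sema3b, Sema3d, Sema3g, Sema4d, Sema4f, Sema5b, Sema6a, Sema6d, Unc5b, Neo1, Plxna2 and Plxnb3 also had their lowest group means at E15.5 and in MB. Nrp1, with means of 19.3, 58.8, 24.9, 59.6 and 26.5 CPM, was highest at P1 and P14, as both sums were. Both sums were low at E15.5 as well as in MB. The 13 members that were lower in each MB library than in all 12 precursor libraries include Unc5c, Slit2, Sema3a, Sema5a, Unc5a and Plxna4. By that definition all 13 also lay above MB at E15.5, so their E15.5 level adds nothing about the part of these cells. E15.5 and MB also differ in genotype label, and what sets these members apart in the 2 groups was not tested. All 8 markers of astroglia and Bergmann glia summed to 124 to 359 CPM in E15.5 libraries, 2459 to 3791 in P1, 1908 to 4203 in P7, 3421 to 4389 in P14 and 984 to 1438 in MB libraries. The markers did not all fall from P7 to MB. S100b went from 54.6, 43.2 and 22.9 CPM to 124, 195 and 206, and Gfap from 317, 243 and 179 to 391, 198 and 158. Aqp4, Slc1a3, Aldh1l1, Fabp7, Gdf10 and Hopx were lower in every MB library than in every P7 library. Like the sum, Ntn4, Sema3d, Sema3g, Sema4f, Sema5b and Unc5b rose from E15.5 to P1 and fell in MB against P7. Sema6a was at FDR 0.0559 for the first and fell in the second. The part of these cells in the members' changes was not tested.

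Sema3b followed the sum of the choroid plexus list by library, but not every marker of that list. The 6 choroid plexus markers summed to 120.2, 379 and 97.2 CPM at E15.5, 407, 10510.0 and 3988 at P1, 52.4, 525 and 2031 at P7, 5845, 8584 and 5191 at P14 and 196, 279 and 54.9 in MB. P1 replicates 2 and 3, P7 replicate 3 and the P14 libraries were highest in both. Ttr alone was at 5565, 8279 and 4970 CPM at P14. Ttr, Folr1, Kl and Aqp1 were highest in the same libraries as the sum. Clic6 was higher in MB (20.3, 24.8 and 21.6 CPM) than in P7 replicate 3 (18.6 CPM). Otx2 went another way, at 89.7, 85.4 and 70.1 CPM at E15.5, 58.4, 63.8 and 55.0 at P14 and 150.1, 87.3 and 19.0 in MB. The 10 oligodendrocyte lineage markers, listed beside Plxnb3 and Sema4d, summed to 72.5 to 106 CPM in the E15.5 libraries, 612 to 3855 in P1, 981 to 1911 in P7, 5921 to 6335 in P14 and 688 to 976 in MB libraries, with P1 replicate 3 the highest of P1. Beside the members with an embryonic peak, 7 markers of unipolar brush and cerebellar nuclear neurons summed to 226 to 516 CPM at E15.5 and 76.8 to 108 at P1, and 8 GABAergic interneuron markers to 469 to 647 and 189 to 270.5. Beside the members low in MB, the interneuron markers summed to 239 to 329.9 CPM at P7 and 7.33 to 10.4 in MB, and 8 Purkinje cell markers to 406 to 1040.0 and 53.6 to 87.9. No marker of these lists was at 0 throughout a group, and their part in the members' changes was not tested. Beside Sema3e and Sema7a, the microglia and macrophage list (8 markers) was the list whose highest sum among the groups was in MB. Other lists, such as that of astroglia, had higher sums within MB. Its sum was 43.9 to 139 CPM at P7, 131 to 189 at P14 and 144 to 421 in MB. Aif1, C1qa, C1qb, Tyrobp and Ptprc were higher in every MB library than in every precursor library. Csf1r, Cx3cr1 and P2ry12 overlapped the precursors, and P2ry12 was at 20.5, 3.76 and 3.64 CPM in MB. Single markers of other lists were also high in MB, such as Pdgfra of the oligodendrocyte list, at 813, 274 and 384 CPM against 217, 289 and 205 at P7. The part of these cells was not tested.

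**Figure D5:**
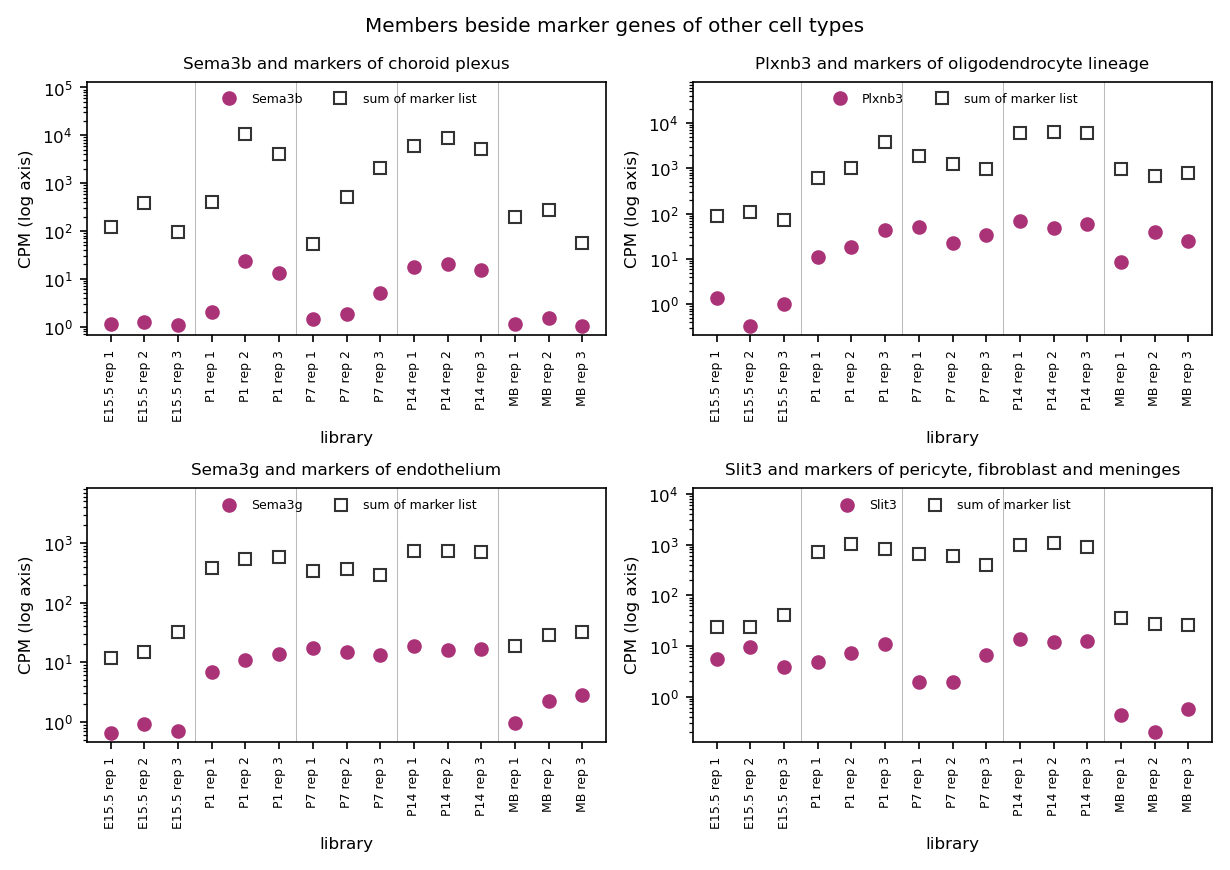
CPM on log axes in each of the 15 libraries for 4 members (filled points) and the summed CPM of a marker list (open squares). Sema3b and the choroid plexus list rise in P1 replicates 2 and 3 and at P14, and Sema3g and the endothelial list are low at E15.5 and in MB.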

How the data were processed

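RNA-seq libraries (5 groups of 3) were analysed from raw read counts per Ensembl gene deposited by the authors, in the format of HTSeq per the file headers. Trimmomatic, TopHat, StringTie and HTSeq and the build mm9 are named in the submitters' processing notes without versions. The strand setting is not given in the sources used here, so reads of overlapping antisense genes cannot be told apart. Lines that name no gene (44.6% to 60.5% of records) were left out. Genes passing filterByExpr (minimum count 10, minimum total 15) were fitted with edgeR 4.0.16 in R 4.3.3 after TMM scaling, as 1 mean per group over all 15 libraries (10 residual degrees of freedom), with the quasi-likelihood F-test and Benjamini-Hochberg adjustment. The pipeline was tested on simulated data. CPM are counts relative to a scaled library total of 1000000, and fold values are 2 to the power of edgeR's log2 fold change. Lengths are of the longest coding transcript of GENCODE vM21. Alternatives were DESeq2 1.42.0, no TMM, no filter, the authors' deposited counts per TSS model and per transcript, a replicate block, a term for the counting set, 1 counting set, only the groups compared, and each library left out. Every library's value is given for the 8 largest called changes (mean of at least 1 CPM) in P1 against E15.5, P14 against P1 and MB against P7, and for each family's most abundant gene per length. Partners are named when among the 4 largest called changes with at least 5 CPM. Members, lists and rules were chosen with earlier results of these data known.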

Additional observations from a re-analysis of the deposited data

How the results depend on the processing

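No called member changed direction in any alternative. Of the 154 member comparisons that were not called, 40 were called in at least 1 alternative. In the opposite direction this was 1, that of Robo3 in MB against P7, with a log2 fold change of 2.18 over all libraries and -2.63 within 1 counting set. Also followed for sign were Dcc, Neo1, Sema6c, Plxnc1 and Plxnd1 in MB against P7, and Sema6a and Plxnd1 in P1 against E15.5. Of these, 2 changed sign, both in MB against P7. Neo1 was at a log2 fold change of 0.0057 within 1 counting set. Plxnd1 ran from -0.072 without MB replicate 1 to 0.49 without MB replicate 2. The sign of other uncalled comparisons was not followed unless an alternative called them. The counts that moved by more than 1.5 times were those of the postnatal steps. With a term for the counting set, P7 against P1 gave 1 member and P14 against P7 gave 1. P14 against P7 gave 11 with DESeq2 and 15 with only the groups compared. P14 against P1 gave 6 of 28 members measurable in the TSS model table, 19 with only the groups compared and 18 within 1 counting set. Within 1 counting set, E15.5 and MB had 1 library each, assumed to vary like the other groups. Leaving out each library in turn gave 0 to 8 members for P7 against P1, 0 to 3 for P14 against P7 and 3 to 15 for P14 against P1. For P1 against E15.5, MB against P7 and the 4 ages such ranges were 23 to 27, 20 to 24 and 30 to 34. Library totals without TMM moved the median log2 fold change of all genes by 0.225 for P1 against E15.5 and by -0.13 for P7 against P1, and by less than 0.1 elsewhere.

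Replicate numbers did not pair the libraries: correlations of deviations from group means were -0.312 to 0.332 (median -0.0128) over 30 pairs with the same number and -0.484 to 0.465 (median 0.00597) over 60 pairs with different numbers. With the number as a block, 26 members were called for P1 against E15.5 and 23 for MB against P7. The block gave 5 for P7 against P1, 7 for P14 against P7, 10 for P14 against P1 and 32 among the 4 ages.

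Under 10 reads in a library were counted for Robo3 at P14 (3 to 8) and in MB replicate 1 (3), Plxnb3 in E15.5 replicate 2 (4) and Slit3 in MB replicate 2 (8). Replicates differed beyond counting noise in every group (chi-square per degree of freedom 17.1 to 255), so the number of libraries limits the rest.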

Other observations

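In the authors' deposited counts per transcription start model, 28 members were matched to a model. Among these, only Sema4d had more than 1 model, ENSMUST00000021900 and ENSMUST00000110042. The share of Sema4d reads in ENSMUST00000110042 was 14.2%, 10.8% and 7.83% at E15.5, 3.94%, 13.3% and 21.8% at P1, 16.7%, 12.3% and 14.8% at P7, 23.5%, 26.5% and 26.1% at P14 and 1.88%, 4.03% and 5.58% in MB. It was highest in the P14 libraries and, among the P1 libraries, in replicate 3. The difference was not tested.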
